A study of Mus musculus with 19 samples.

Results

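The growth hormone, prolactin and insulin-like growth factor (IGF) axis of the liver was described through 10 genes, out of 51826 gene entries quantified in each liver: the receptors Ghr and Prlr, the transcription factors Stat5a and Stat5b, the feedback inhibitors Socs2 and Cish, the hormone Igf1, its carrier Igfals, and the binding proteins Igfbp1 and Igfbp2. The genes were chosen by name, with earlier results of these data known, and each symbol matched 1 entry. RNA came from flash-frozen livers of 19 age-matched female Balb/c mice aged 12 weeks, which were 7 nulliparous mice (NUL), 6 mice at lactation day 10 (LAC) and 6 mice at involution day 6 (ID6), the sixth day after weaning. No transgene or drug was named for these mice in the sources used here. Each mouse was 1 library, and mice are named here by stage and animal number. The comparison of stages addressed how the maternal liver changes when it serves milk production and when that demand ends.

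Growth hormone and prolactin are pituitary hormones that bind sister receptors on hepatocytes. Both receptors activate the kinase JAK2, which phosphorylates the transcription factors STAT5A and STAT5B. These enter the nucleus and switch on target genes, among them Igf1, Igfals and the feedback inhibitors Socs2 and Cish. The liver makes most of the IGF1 in blood, where it circulates in a complex with a binding protein and the acid-labile subunit encoded by Igfals. Igfbp1 and Igfbp2 encode smaller IGF carriers, and transcription of Igfbp1 is known to be restrained by insulin and to rise with fasting.

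Sequences around the gene starts are shown for the genes whose promoter held the palindromic letters TTCNNNGAA, to which STAT5 proteins bind, because the axis acts on its targets through STAT5. Of the 3 genes that held it, Prlr was called in 1 comparison of stages, and Cish and Igfals in none. Promoters were 300-base windows from RefSeq on GRCm38.p6, running from 250 bases before to 50 bases after a start, and 9 of the 10 genes had 17 such windows between them. Socs2 had no window, so its promoter was not searched. The letters, which read alike on both strands, were found in 4 of the 17 windows and in 2726 of 32851 promoters in the table (8.3%). Cish held 2 copies in its window, as did 150 promoters of the table (0.457%). Each line gives 30 bases of the plus strand, with the motif in capitals.
Cish, chr9:107296654-107296683, copies at positions 1 and 12 after the start, in a UTR of the annotation: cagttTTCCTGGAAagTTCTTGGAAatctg
Prlr, chr15:10223785-10223814, 110 bases before an internal start, in an intron of the longest gene model: ggcaaaatgagTTCTAGGAAtaagggatat
Igfals, chr17:24877597-24877626, 236 bases before an internal start, in an intron: cgatctataatTTCTCAGAAaagaggctga
Igfals, chr17:24878162-24878191, 58 bases before a further internal start, in an intron: tctgccaggtgTTCCTAGAAgaggccctgg
Over all mice Igfbp1 had the widest spread of these genes, at 52.8-fold between the lowest and the highest mouse. Within a stage and a range of animal numbers, described below, Cish spread more, with a log2 SD of 1.2 against 0.91 for Igfbp1. A further window is shown for Igfbp1 because of its spread over all mice. It lies 108 bases before the start, upstream of the gene, and holds CAAAACAA, a form of the insulin response element, which either strand of 825 promoters (2.51%) also held. These letters were searched after the promoter had been read.
Igfbp1, chr11:7197668-7197697: gagctcacaagCAAAACAAacttattttga
A match of letters is a description and was not tested as a binding site.

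Values are TPM, transcript abundances scaled by gene length and to a fixed total per library, so that levels can be compared between genes. They keep no record of read number, so the depth behind each value is unknown. Tests were made with limma on log2(TPM + 1) over 16230 genes, all 10 genes of the axis among them, and a change was called at a Benjamini-Hochberg adjusted p under 0.05. Hepatocyte markers were far above those of other cell types in every library, and 6 of them, with albumin first, summed to between 57406 and 149560 TPM. The animal numbers fell into 2 ranges. NUL_1, NUL_4, NUL_13, LAC_36, LAC_102 and LAC_133 were numbered under 200, and the other 13 mice, with all ID6 mice, were numbered 200 and above. Expression differed widely between the ranges within NUL and LAC, with 16.4% of 16179 genes higher and 9.14% lower in the upper range. The mice came from Charles River or the Jackson Laboratory, and which of these supplied which mouse was not given in the sources used here. Zhx2, a liver repressor whose low expression marks one Balb/c substrain, measured 2.36 to 3.73 TPM in the 6 mice under 200 and 0.06 to 0.27 TPM in all the others. Together with Afp, H19 and Gpc3, which this repressor is known to hold down after birth, 2 of 4 genes were higher in the upper range (H19 and Gpc3) and 1 was lower (Zhx2). The part of strain source in the results was not tested. The range was not named as a batch by the authors, so results of the 10 genes are given over all mice and within the upper range, where all 3 stages were present. Other genes and the cell type markers are compared between stages over all mice only. For them, stage and range were not separated in comparisons with ID6. ID6 and the lower range cannot be compared at a matched range.

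**Figure D1:**
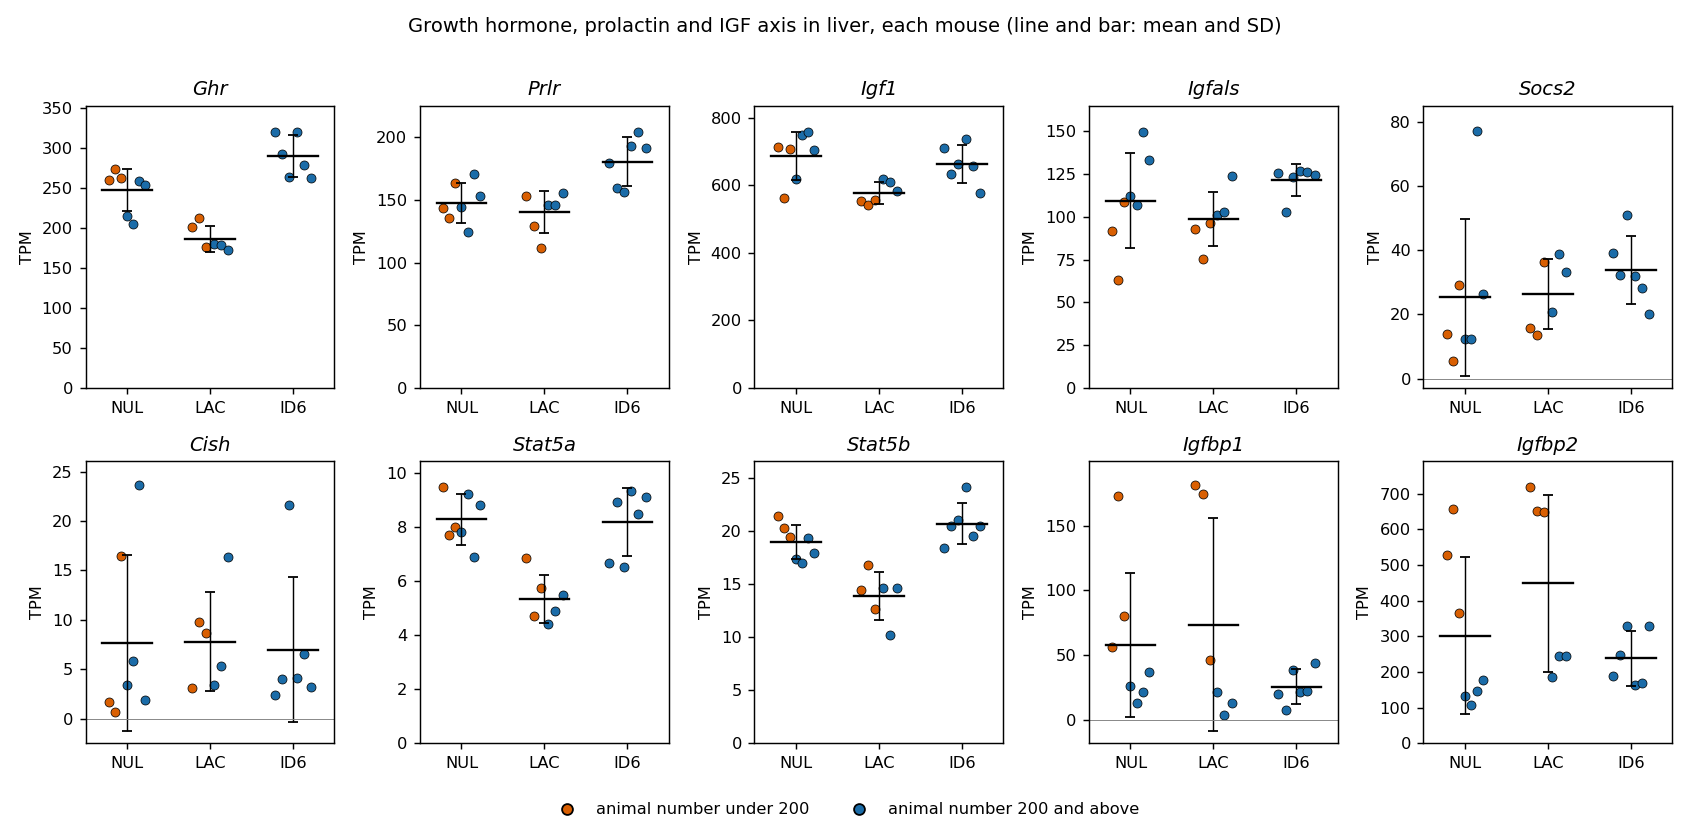
TPM (vertical axis, linear) of the 10 genes in each mouse, by stage (NUL, n = 7; LAC, n = 6; ID6, n = 6), with orange points for mice numbered under 200 and blue points for mice numbered 200 and above; lines and bars give the mean and SD, and the SD bars of Cish and Igfbp1 reach below 0. Ghr, Stat5a and Stat5b dip in LAC, whereas Igfbp1 and Igfbp2 separate by colour in NUL and LAC.

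The receptors are taken first. Ghr, the growth hormone receptor, fell by 24.5% in lactation and stood 55.3% higher in involution than in lactation, while Prlr, the prolactin receptor, was not called in lactation and rose by 28.6% from lactation to involution. Ghr (chromosome 15, 3317760 to 3583492, minus strand, GRCm38) measured 205.26 TPM at the lowest, 259.2 at the median and 273.8 at the highest in NUL. In LAC the lowest, median and highest values were 171.99, 179.1 and 212.39 TPM, and in ID6 they were 262.22, 286.3 and 320.7 TPM. Every ID6 mouse lay above every LAC mouse, and NUL and LAC overlapped by 1 mouse on each side: LAC_102, at 212.39 TPM, exceeded NUL_221, at 205.26 TPM. Within each range of animal numbers the LAC mice lay below all the NUL mice, with 175.88 to 212.39 against 260.33 to 273.8 TPM under 200 and 171.99 to 179.87 against 205.26 to 259.17 TPM at 200 and above.

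The mean of Ghr was 247.4 ± 26.1 TPM in NUL (SD, n = 7), 186.7 ± 16.3 in LAC (n = 6) and 290.0 ± 26.1 in ID6 (n = 6). The log2 fold change was -0.40 (SE 0.078, limma adjusted p = 0.00307) for LAC against NUL and 0.63 (SE 0.081, adjusted p = 2.71e-05) for ID6 against LAC. The comparison of ID6 with NUL gave 0.23 (SE 0.078) and was not called (adjusted p = 0.0896), although the 6 ID6 mice, at 262.22 TPM and above, all exceeded the 4 NUL mice of the same range, which reached 259.17 TPM. With the range of animal number as a covariate this difference was 0.30 and was called (adjusted p = 0.041).

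Prlr (chromosome 15, 10177238 to 10349180, plus strand) lies on the same chromosome as Ghr. It measured 124.13 TPM at the lowest, 144 at the median and 171.06 at the highest in NUL, and 111.86, 146 and 155.55 TPM in LAC. These ranges overlapped almost fully, and the log2 fold change was -0.08 (SE 0.090, limma adjusted p = 0.664). In ID6 the lowest, median and highest values were 156.02, 185.4 and 204.58 TPM, all above the LAC mice. The rise from 140.4 ± 16.7 TPM in LAC (SD, n = 6) to 180.6 ± 19.4 in ID6 (n = 6) gave a log2 fold change of 0.36 (SE 0.093, adjusted p = 0.00857). The Prlr call was lost within the upper range of animal numbers (log2 fold change 0.27, adjusted p = 0.107) and under median-ratio scaling of the libraries (0.20, adjusted p = 0.136). A gene-level value sums the long and short receptor isoforms, which were not separated here. ID6 against NUL, at 0.29 (SE 0.090), was not called (adjusted p = 0.0714), and it was called without NUL_226 (0.32, adjusted p = 0.0462).

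The ratio of the receptors within a mouse does not depend on how that mouse's library was scaled. Prlr reached 0.496 to 0.668 of the Ghr level in NUL (median 0.605), 0.61 to 0.904 in LAC (median 0.786) and 0.545 to 0.732 in ID6 (median 0.596). The ratio was 0.757 ± 0.114 in LAC (SD, n = 6) against 0.601 ± 0.0602 in NUL (n = 7), a log2 difference of 0.33 with a two-sided exact permutation p of 0.0122. Adjusted over 9 tests of ratios the exact p was 0.11, so the difference did not pass. In the upper range the 3 LAC mice, at 0.813 to 0.904, lay above the 4 NUL mice, at 0.602 to 0.668 (exact permutation p = 0.0286, the smallest this design can give, unadjusted), and above the 6 ID6 mice (exact permutation p = 0.0119, again the smallest possible, unadjusted). Over all mice ID6 against LAC gave a log2 difference of -0.27 (exact permutation p = 0.0563, adjusted 0.253).

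**Figure D2:**
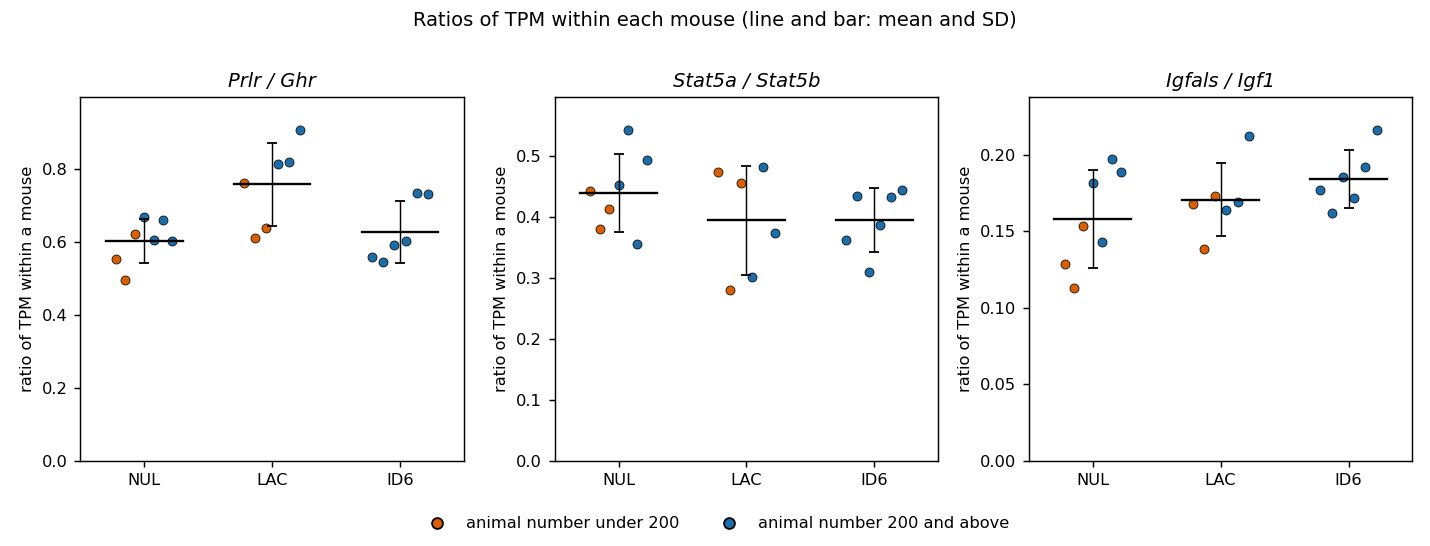
Ratios of TPM within each mouse (vertical axis, linear from 0) for Prlr to Ghr, Stat5a to Stat5b and Igfals to Igf1 by stage, with orange points for mice numbered under 200 and blue points for the others; lines and bars give the mean and SD. The Prlr to Ghr ratio is highest in the 3 LAC mice of the upper range, at 0.813 to 0.904, and the Stat5a to Stat5b ratio overlaps between all stages.

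The STAT5 transcription factors followed the course of Ghr: both fell in lactation and both were higher in involution than in lactation. Stat5a fell by 35.4% and Stat5b by 26.8% from NUL to LAC, and the rises from LAC to ID6 were 52.7% and 49.1%. Stat5b was the more abundant of the pair in every mouse. It measured 17.02 TPM at the lowest, 19.39 at the median and 21.43 at the highest in NUL, 10.19, 14.57 and 16.82 TPM in LAC, and 18.45, 20.54 and 24.18 TPM in ID6. No LAC mouse overlapped either of the other stages. The log2 fold change of Stat5b was -0.43 (SE 0.091, limma adjusted p = 0.00506) for LAC against NUL and 0.55 (SE 0.094, adjusted p = 0.000352) for ID6 against LAC.

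Stat5a measured 6.88 TPM at the lowest, 8.02 at the median and 9.48 at the highest in NUL, and 4.41, 5.19 and 6.85 TPM in LAC, again with no overlap. In ID6 the values were 6.51, 8.695 and 9.35 TPM, and ID6_216 and ID6_201, at 6.51 and 6.68 TPM, lay below the highest LAC mouse, LAC_36. The log2 fold change was -0.55 (SE 0.10, limma adjusted p = 0.00208) for LAC against NUL and 0.53 (SE 0.11, adjusted p = 0.00141) for ID6 against LAC. ID6 and NUL did not pass for either gene, at -0.02 for Stat5a (adjusted p = 0.912) and 0.12 for Stat5b (adjusted p = 0.423). The genes lie side by side on chromosome 11, Stat5b at 100780731 to 100850724 on the minus strand and Stat5a at 100859351 to 100885169 on the plus strand, with 8626 bases between them. Their coding sequences are similar, so the authors' quantification could have moved some reads between them and the share of each gene is uncertain. How many reads this concerns was not tested. The ratio of Stat5a to Stat5b was 0.439 ± 0.0643 in NUL (SD, n = 7), 0.394 ± 0.0891 in LAC (n = 6) and 0.395 ± 0.0524 in ID6 (n = 6), and no comparison passed (exact permutation p of 0.221 to 0.898, unadjusted).

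Socs2 and Cish, which encode inhibitors that STAT5 induces and that damp the same receptors, were not called in any comparison. Their levels varied between mice of the same stage far more than those of the receptors. Socs2 (chromosome 10, 95385362 to 95417180, minus strand) ranged over 14.2-fold between the lowest and the highest of the 19 mice, and Cish (chromosome 9, 107296026 to 107302784, plus strand) over 37.6-fold, against 1.86-fold for Ghr and 1.4-fold for Igf1. The lowest, median and highest Socs2 values were 5.45, 14.02 and 77.17 TPM in NUL, 13.63, 26.93 and 38.66 in LAC, and 20.1, 32.21 and 51.08 in ID6. The stages overlapped throughout. The log2 fold change of Socs2 was 0.37 (SE 0.42, limma adjusted p = 0.649) for LAC against NUL, 0.40 (SE 0.44, adjusted p = 0.544) for ID6 against LAC and 0.77 (SE 0.42, adjusted p = 0.259) for ID6 against NUL. Within the upper range of animal numbers these values were 0.31, 0.12 and 0.43 (limma adjusted p of 0.754 to 0.898).

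Cish measured 0.63 TPM at the lowest, 3.36 at the median and 23.66 at the highest in NUL, 3.06, 7 and 16.35 TPM in LAC, and 2.36, 4.075 and 21.62 TPM in ID6. The highest values of each stage were those of NUL_226 and NUL_13 (23.66 and 16.46 TPM), LAC_240 (16.35 TPM) and ID6_216 (21.62 TPM). The next mice measured 5.86 TPM in NUL, 9.8 TPM in LAC and 6.57 TPM in ID6. The log2 fold changes were 0.47 (SE 0.58, limma adjusted p = 0.682) for LAC against NUL and -0.29 (SE 0.61, adjusted p = 0.772) for ID6 against LAC. Within the upper range they were 0.22 (limma adjusted p = 0.917) and -0.32 (adjusted p = 0.799). NUL_226 was also the highest of its stage for Socs2, at 77.17 TPM, and ID6_216 was the highest of its stage, at 51.08 TPM. NUL_4 was the lowest of all mice for both genes, at 5.45 TPM of Socs2 and 0.63 TPM of Cish.

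Over the 19 mice, after the mean of its stage and its range of animal numbers had been subtracted from each log2 value, Socs2 and Cish gave a Pearson r of 0.68 (permutation p = 0.0152, and 0.152 adjusted over 10 pairs of genes) and a Spearman rho of 0.505 (permutation p = 0.0859). The relation did not pass the adjustment. Without NUL_226 and NUL_4 r was 0.526. Within the ranges r was 0.622 over the 13 mice of 200 and above and 0.773 over the 6 mice under 200. None of the other 9 pairs passed either, with Igf1 and Socs2 at r = 0.579 (permutation p = 0.0583, adjusted 0.291), Igf1 and Igfals at r = 0.535 (permutation p = 0.109, adjusted 0.342), and Stat5a and Stat5b at r = -0.000757 (permutation p = 0.998). All values of a mouse come from 1 library, so its scaling is shared by both genes of a pair.

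**Figure D3:**
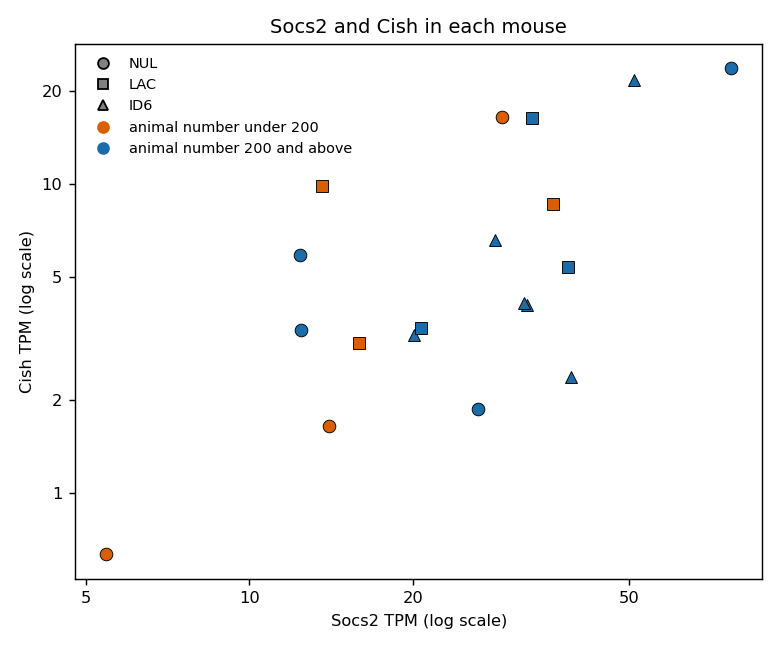
Cish against Socs2 in each mouse, in TPM on log axes; the symbol gives the stage and the colour the range of animal number (orange under 200, blue 200 and above). NUL_226 and ID6_216 are the highest points for both genes and NUL_4, at 5.45 and 0.63 TPM, is the lowest.

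Igf1, the growth factor whose hepatic synthesis is driven by growth hormone, had the highest mean of the 10 transcripts over all mice of each stage and fell by 16.1% in lactation. Igf1 (chromosome 10, 87858265 to 87937042, plus strand) measured 561.88 TPM at the lowest, 707.3 at the median and 758.93 at the highest in NUL, 542.54, 569.9 and 617.38 TPM in LAC, and 577.03, 661 and 737.68 TPM in ID6. The NUL mice lay above the LAC mice except NUL_4, at 561.88 TPM. The mean was 687.6 ± 71.5 TPM in NUL (SD, n = 7) and 577.0 ± 31.4 in LAC (n = 6), a log2 fold change of -0.25 (SE 0.074, limma adjusted p = 0.0417). In ID6 it was 663.3 ± 56.6 TPM (n = 6), which did not differ from LAC at the threshold (0.20, SE 0.077, adjusted p = 0.07) nor from NUL (-0.05, SE 0.074, adjusted p = 0.706).

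The Igf1 call in lactation lay close to the threshold. It was lost without any one of NUL_1, NUL_13, NUL_221, NUL_226, NUL_227, LAC_36, LAC_102, LAC_133, LAC_240 or ID6_230 (adjusted p up to 0.0914), within the upper range (-0.22, adjusted p = 0.177), under median-ratio scaling (-0.19, adjusted p = 0.171), under quantile normalization (adjusted p = 0.123), with only NUL and LAC fitted (adjusted p = 0.0737) and with no filter on low values (adjusted p = 0.0583). The value was negative each time. The call was kept with the range of animal number as a covariate (-0.24, limma adjusted p = 0.0225). It was also kept with the other pseudocounts, with the filter at 1 TPM and under robust moderation. For ID6 against LAC, Igf1 was called without NUL_4 (adjusted p = 0.0371), without ID6_232 (adjusted p = 0.0382) and with only these stages fitted (adjusted p = 0.0496).

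Igfals (chromosome 17, 24865997 to 24882010, plus strand) was not called between stages. It measured 63.25 TPM at the lowest, 108.7 at the median and 149.76 at the highest in NUL, 75.12, 98.63 and 123.71 TPM in LAC, and 102.67, 125.1 and 126.74 TPM in ID6. The log2 fold change was -0.12 (SE 0.15, limma adjusted p = 0.683) for LAC against NUL and 0.31 (SE 0.15, adjusted p = 0.156) for ID6 against LAC. With only LAC and ID6 fitted the second difference was called (adjusted p = 0.0401), and within the upper range it was 0.15 (adjusted p = 0.389). Igfals was 0.43 higher on the log2 scale in mice numbered 200 and above than in those under 200 over NUL and LAC (SE 0.13, adjusted p = 0.0235), a call that was lost within NUL alone (0.53, adjusted p = 0.0941) and within LAC alone (0.31, adjusted p = 0.167). The ratio of Igfals to Igf1 was 0.158 ± 0.0322 in NUL (SD, n = 7), 0.171 ± 0.0237 in LAC (n = 6) and 0.184 ± 0.0187 in ID6 (n = 6), with exact permutation p of 0.107 to 0.395 before adjustment. Within the upper range it was 0.178 ± 0.0239 in NUL (n = 4) and 0.182 ± 0.0264 in LAC (n = 3), beside the same value in ID6. There the exact permutation p was 0.638 to 0.857, unadjusted.

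Igfbp1 and Igfbp2 differed between the ranges of animal number by more than any other of the 10 genes. Igfbp1 (chromosome 11, 7197782 to 7202546, plus strand) measured 55.99, 79.89 and 173.16 TPM in the 3 NUL mice under 200 and 12.76 to 37.12 TPM in the 4 NUL mice of 200 and above. In LAC it measured 46.52, 174.16 and 181.46 TPM in the mice under 200 and 3.44, 13.21 and 21.74 TPM in the others. The ranges of animal number did not overlap in either stage, and the 6 ID6 mice, all of the upper range, measured 7.26 to 43.72 TPM. Over NUL and LAC the upper range was lower by a log2 difference of -2.61 (SE 0.47, limma adjusted p = 0.00145).

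Igfbp2 (chromosome 1, 72824503 to 72852474, plus strand) was also higher in the mice under 200. The NUL mice under 200 measured 365.89, 527.78 and 658.18 TPM against 106.25 to 178.67 TPM in the other NUL mice, and the LAC mice under 200 measured 648.66, 652.28 and 719.13 TPM against 184.74, 244.17 and 244.29 TPM. The log2 difference between the ranges was -1.73 (SE 0.14, limma adjusted p = 2.75e-06). Ghr, at -0.17 (adjusted p = 0.0674), and the other members did not pass in this comparison, so 2 members were lower and 1, Igfals, was higher in the upper range, beside the 9.14% and 16.4% of all genes given above. Under median-ratio scaling Ghr was also called lower in the upper range (-0.25, adjusted p = 0.0212), as it was without NUL_226 (adjusted p = 0.0423) or LAC_133 (adjusted p = 0.0335). The response to lactation was not shown to differ between the ranges for any member: 18 of 16179 genes were called in the test of that interaction, none of the 10 among them, and the smallest unadjusted limma p of a member was 0.15, for Igfbp1.

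Between stages neither binding protein was called over all mice. Igfbp1 gave a log2 fold change of -0.24 (SE 0.76, limma adjusted p = 0.892) for LAC against NUL and -0.63 (SE 0.78, adjusted p = 0.604) for ID6 against LAC, and Igfbp2 gave 0.68 (SE 0.43, adjusted p = 0.374) and -0.76 (SE 0.45, adjusted p = 0.241). Since ID6 held no mouse under 200, its lower means, 25.56 ± 13.3 TPM for Igfbp1 and 238.3 ± 76.6 TPM for Igfbp2 (SD, n = 6), cannot be told apart from the range. Within the upper range the signs turned for ID6 against LAC, to 1.05 for Igfbp1 (adjusted p = 0.226) and 0.04 for Igfbp2 (adjusted p = 0.938). In that range the 3 LAC mice, at 184.74 to 244.29 TPM of Igfbp2, lay above the 4 NUL mice, at 106.25 to 178.67 TPM, whereas under 200 the stages overlapped. With the range as a covariate Igfbp2 was higher in LAC than in NUL by 0.56 (SE 0.18, adjusted p = 0.0429), and within the upper range alone the difference of 0.68 did not pass (adjusted p = 0.135).

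**Figure D4:**
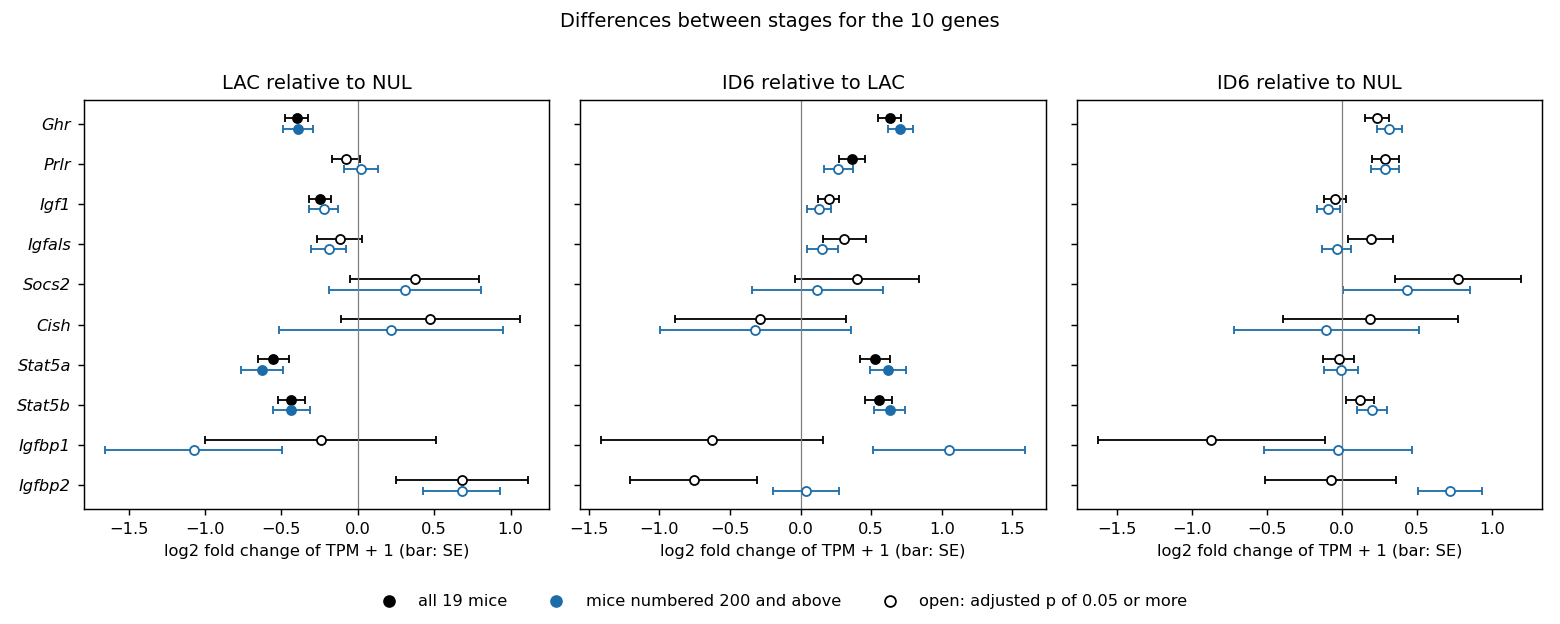
Log2 fold changes of TPM + 1 (horizontal axis, bars give the SE) of the 10 genes for LAC against NUL, ID6 against LAC and ID6 against NUL, over all 19 mice (black) and over mice numbered 200 and above (blue); filled points have an adjusted p under 0.05. Ghr, Stat5a and Stat5b are filled in both sets of mice for LAC against NUL and for ID6 against LAC, and the Igfbp1 and Igfbp2 points shift between the sets of mice.

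Counted together, 4 of the 10 genes were lower in LAC than in NUL (Stat5a, Ghr, Stat5b and Igf1) and none was higher. The background was 6.49% of 16230 genes lower and 2.72% higher. The median log2 fold change of the 10 genes was -0.18, and that of all genes tested was -0.03. Stat5a and Stat5b, 2 of the 10, had no overlap between the stages, as had 3.27% of all genes. With the authors' further condition of a log2 fold change of at least 1, no member was called, against 0.746% of all genes. For ID6 against LAC, 4 of the 10 were higher (Ghr, Stat5b, Stat5a and Prlr) and none lower, where 18.1% of all genes were higher and 4.73% lower. The median was 0.34 for the 10 genes and 0.10 for all genes. Ghr, Stat5b and Prlr did not overlap, as did 11.5% of all genes, and none of the 10 passed the fold condition, which 1.93% of all genes did. These comparisons share the LAC mice. The 10 genes were chosen with earlier results of these data known, so the counts are a description and not an independent test.

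For ID6 against NUL no member was called by limma, and 2, Prlr and Ghr, had an unadjusted p under 0.05. Here 3.44% of all genes were higher and 0.912% lower, 0.253% passed the fold condition and 2.38% did not overlap, the last a count that held none of the 10. The balance of directions over all genes depended on scaling. Median-ratio scaling moved the median log2 fold change of all genes for ID6 against LAC by -0.104, from 0.10 to -0.00492, and the split from 2936 higher and 767 lower genes to 1303 and 1352. For LAC against NUL the split went from 441 higher and 1053 lower to 743 and 735, and for ID6 against NUL from 559 and 148 to 165 and 214. Relative to that shifted median Ghr (0.47, adjusted p = 0.00393), Stat5b (0.40, adjusted p = 0.0117) and Stat5a (0.39, adjusted p = 0.00836) were still called higher in ID6 than in LAC. Ghr (-0.35, adjusted p = 0.037), Stat5a (-0.51, adjusted p = 0.00207) and Stat5b (-0.38, adjusted p = 0.022) were still called lower in LAC than in NUL.

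Markers of other cell types moved between stages as well. Over all genes, 2.72% were higher and 6.49% lower in LAC than in NUL, and 18.1% higher and 4.73% lower in ID6 than in LAC. For ID6 against NUL these shares were 3.44% and 0.912%. In bulk RNA, fewer cells of a type and less RNA per cell cannot be told apart. The 6 hepatocyte markers summed to 57406 to 93372 TPM in NUL, 97725 to 149560 TPM in LAC and 78500 to 109666 TPM in ID6. Most of each sum was Alb, with means of 55210, 100200 and 62530 TPM, and Alb alone of the 6 was called higher in LAC than in NUL. The means of Ttr, Serpina1c and Apob were lower in LAC than in NUL, and those of Apoa1 and Cps1 were higher. The median log2 fold change of the 6 was 0.0352, and that of all genes was -0.0321. In ID6 against LAC, Ttr was called higher and Alb lower. Of 5 Kupffer cell markers 4 were lower in LAC than in NUL and all 5 were higher in ID6 than in LAC and than in NUL, with sums of 145.6 to 279.79, 94.67 to 200.23 and 322.79 to 463.12 TPM in NUL, LAC and ID6. Of 5 markers of other leukocytes 1 was lower in LAC than in NUL and all 5 were higher in ID6 than in LAC, with sums of 4.47 to 12.82, 3.53 to 6.43 and 11.96 to 15.96 TPM. Endothelial markers were lower for 1 of 5 in LAC and higher for 3 of 5 in ID6 against LAC. Stellate markers were lower for 1 of 5 and then higher for 2 of 5, and cholangiocyte markers lower for 1 of 5 and then higher for 1 of 5. Of 3 pancreas markers Cela1 was called lower in LAC and higher in ID6 against LAC. The others were near 0, were not called and had their highest means in LAC. In NUL, LAC and ID6, Prss2 averaged 0.01429, 0.8083 and 0.05 TPM, and Cpa1 0.02, 0.455 and 0.035 TPM. Erythroid markers were not called in LAC against NUL, and all 3 that were tested were lower in ID6 than in LAC and than in NUL. Mammary markers, which include the casein Csn2, summed to 0.07 TPM or less in NUL, 0 in ID6 and at most 16.05 TPM in LAC, and none was called. The part of these markers in the changes of Ghr, Prlr, Stat5a, Stat5b and Igf1 was not tested.

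Of 5 genes for pituitary and hypothalamic hormones, Gh, Prl and Ghrh were listed at 0 TPM in every mouse and were not tested, and Sst and Pomc were not called in any comparison of stages. Among 10 receptors and kinases of the axis, Ghr alone was called in LAC against NUL (1 lower, beside 6.49% of all genes, median log2 fold change -0.01). In ID6 against LAC, 4 of the 10 were higher, where 18.1% of all genes were, and none was lower, with a median of 0.13. These were Ghr, Prlr and the kinases Jak2 (4.04 ± 0.426 TPM in LAC and 4.993 ± 0.414 in ID6, SD, n = 6 each, log2 fold change 0.25, limma adjusted p = 0.0257) and Jak1 (24.06 ± 2.62 and 29.8 ± 3.3 TPM, 0.30, adjusted p = 0.0366). JAK2 is the kinase bound to both hormone receptors. Jak1 and Jak2 were also higher in the upper range of animal numbers within NUL and LAC, by 0.29 (adjusted p = 0.00422) and 0.19 (adjusted p = 0.0365).

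Among 21 STATs and inhibitors 2 were lower in LAC than in NUL, the STAT5 genes, and 1 was higher, with a median of -0.03. Of all genes 6.49% were lower and 2.72% higher. The gene that rose was Stat6, the interleukin-4 responsive factor, from 16.44 ± 1.2 TPM in NUL (SD, n = 7) to 20.39 ± 1.7 in LAC (n = 6), a log2 fold change of 0.29 (limma adjusted p = 0.0146) without overlap. It was also higher in ID6 than in NUL (0.28, adjusted p = 0.0374). In ID6 against LAC, 4 of the 21 were higher, a share close to the 18.1% of all genes, and none was lower, with a median of 0.22, among them both STAT5 genes and the inhibitor Socs1 (0.47, adjusted p = 0.018). Socs1 was higher in the upper range too, by 0.45 (adjusted p = 0.000846). Grb10, an adaptor that inhibits insulin and IGF1 receptors, had the smallest adjusted p of this list between the ranges, with the upper range higher by 1.87 (SE 0.078, adjusted p = 4.38e-09), and was not called between stages.

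Of 18 IGF ligands, binding proteins and proteases 12 could be tested. In LAC against NUL, 4 were lower, where 6.49% of all genes were, and none was higher, with a median of -0.25: Igf1, Igfbp7, Igfbp6 and the protease gene Htra1. Igfbp7, a protein secreted largely by vessel-lining cells, fell from 148.8 ± 21.5 TPM in NUL (SD, n = 7) to 98.24 ± 12.7 in LAC (n = 6) and measured 154.1 ± 9.8 in ID6 (n = 6), with log2 fold changes of -0.59 (limma adjusted p = 0.000678) and 0.65 (adjusted p = 0.000123). Htra1 fell by 0.43 on the log2 scale (adjusted p = 0.0207) and then rose by 0.38 (adjusted p = 0.0247), and Igfbp6 fell by 0.52 (adjusted p = 0.0306). Igfbp7 and Htra1 were the 2 of 12 that rose in ID6 against LAC, a share below the 18.1% of all genes, and the median was 0.18.

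Genes that the pattern of growth hormone release sets apart between the sexes changed in a mixed way. Of 11 female-biased genes 4 rose and 1 fell in LAC against NUL, beside 2.72% and 6.49% of all genes. Their median log2 fold change was 0.72, and that of all genes was -0.03. The steroid hydroxylase Cyp2a4 rose from 475.1 ± 91.3 TPM in NUL (SD, n = 7) to 1051 ± 98.1 in LAC (n = 6), a log2 fold change of 1.16 (SE 0.11, limma adjusted p = 4.53e-06) without overlap, and stayed at 992.9 ± 75.7 TPM in ID6 (n = 6), above NUL by 1.08 (adjusted p = 2.18e-05). Cyp3a41a rose by 2.16 (adjusted p = 0.00215) and Cyp3a41b by 2.82 (adjusted p = 0.0159), and Cyp2b13 fell by 1.67 on the log2 scale (adjusted p = 0.00193). The pair Cyp3a41a and Cyp3a41b are near-identical copies whose values may share reads. In ID6 against LAC, 1 of the 11 fell, where 4.73% of all genes were lower. This was Cyp3a41a, at -1.55 (adjusted p = 0.0117), and the median was -0.08. Between the ranges of animal number 1 of the 11 was higher and 3 were lower in the upper range, beside 16.4% and 9.14% of all genes. These included A1bg at 2.46 (adjusted p = 0.0195), Cyp2b13 at -1.15 (adjusted p = 0.000173) and Sult3a1 at -3.77 (adjusted p = 0.000752).

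Of 9 male-biased genes 1 was lower in LAC than in NUL, where 6.49% of all genes were lower. This was Cyp2d9, which fell by 0.80 (limma adjusted p = 0.0066). The median of the 9 was -0.20, and none was called in either comparison of ID6. Between the ranges of animal number 3 of the 9 were higher and 2 lower in the upper range, beside 16.4% and 9.14% of all genes. Hsd3b5, a male-biased steroid dehydrogenase, was higher in the upper range of animal numbers by 4.97 on the log2 scale (adjusted p = 5.51e-07), and Elovl3, a fatty acid elongase, and Cyp4a12a were lower, at -2.73 (adjusted p = 7.09e-06) and -0.79 (adjusted p = 0.00051). For Elovl3 the response to lactation differed between the ranges (interaction 1.67, limma adjusted p = 0.0187), so -2.73 averages unlike differences in NUL and LAC. Of 12 genes of the insulin and fasting response none was called in LAC against NUL by limma, with a median of 0.06. In ID6 against LAC, 2 of the 12 were higher, again near the 18.1% of all genes, the glucose-6-phosphatase gene G6pc (0.99, adjusted p = 0.015) and the lipogenic factor Srebf1 (0.91, adjusted p = 0.034), and Srebf1 was also higher in ID6 than in NUL (1.51, adjusted p = 0.00865). Srebf1 was higher in the upper range within NUL and LAC too (0.97, adjusted p = 0.00343).

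**Figure D5:**
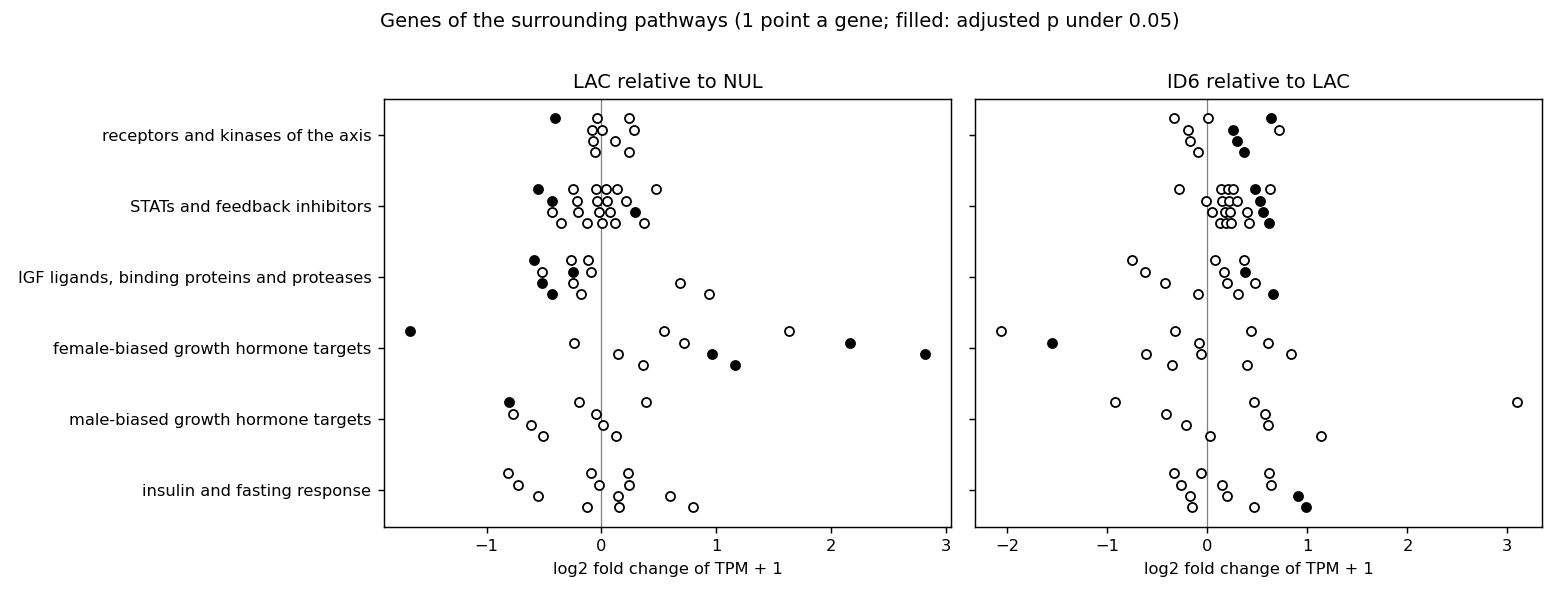
Log2 fold changes of TPM + 1 (horizontal axis) of the tested genes in 6 lists around the axis, 1 point a gene, for LAC against NUL and ID6 against LAC; filled points have an adjusted p under 0.05, and the vertical offset within a list carries no value. Of the female-biased targets 4 filled points lie above 0 and 1 below in LAC against NUL, and the filled receptors, kinases, STATs and inhibitors of ID6 against LAC all lie above 0.

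Igf1 had the highest mean of each stage over all its mice. In NUL the order by mean TPM ran Igf1, Igfbp2, Ghr, Prlr, Igfals, Igfbp1, Socs2, Stat5b, Stat5a and Cish, and of the neighbours Ghr and Prlr, and Stat5b and Stat5a, had values that did not overlap. The places of Igfbp1 and Igfbp2 rested on the mice under 200. Igfbp2 exceeded Ghr in 3 of the 7 NUL mice, and in the 4 NUL mice of 200 and above Igfbp2, at a mean of 141.1 TPM, stood below Ghr, at 233.6, and Igfbp1, at 24.35 TPM, below Socs2, at 32.09. In LAC Cish stood above Stat5a at the bottom of the order, at 7.772 and 5.35 TPM, and Ghr and Prlr were the only neighbours without overlap. Igf1 exceeded Igfbp2 in 3 of the 6 LAC mice, and in the LAC mice under 200 Igfbp2 had the higher mean, at 673.4 against 550.6 TPM. In ID6, which held only mice of 200 and above, Ghr stood above Igfbp2 and Socs2, at 33.83 TPM, above Igfbp1, at 25.56 TPM, as in the NUL mice of that range, and both of these pairs overlapped. Igf1 and Ghr, Prlr and Igfals, Igfals and Socs2, and Stat5b and Stat5a did not overlap in ID6.

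The transcripts whose pattern over the 19 mice was most like each member's were ranked by Pearson r among the 11606 genes averaging 1 TPM or more, as a description in which stage, range and scaling are shared. Igfbp2 had the closest, Enpp2, at r = 0.963, then Ces2a at 0.921 and Tcn2 at 0.917. Stat5b was followed by Mug2 at 0.934, and Stat5a by Amdhd1 at 0.912. Ghr was followed by Gm12247 at 0.894, Ifi44l at 0.891 and Exoc6 at 0.886, and Exoc6 was also among the 3 closest to Stat5b, at 0.881. Prlr was followed by Irf8 at 0.819, Igf1 by Tmem60 at 0.845, Igfals by Dnmt3b and Meis2 at 0.882 each, and Igfbp1 by Cyp4f15 at 0.865. Cish was followed by Foxq1 at 0.852, Foxa2 at 0.847 and Onecut1 at 0.772, all of which encode transcription factors expressed in liver, and Socs2 by Naif1 at 0.803 and B4galt1 at 0.772. Neither feedback inhibitor appeared among the 3 closest transcripts of the other.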

How the data were processed

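Poly(A) RNA of 19 livers was sequenced with paired-end reads. Gene abundances were estimated by the authors with RSEM 1.3.1 on GRCm38 and deposited as TPM per gene and mouse, with 2 decimals. TPM carries no read depth, so no counting interval or count test was possible. The study's own tests were made with DESeq2 on counts, which were not used here. Strandedness was not given in the sources used here, so reads of an overlapping antisense gene cannot be told from those of a member.

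TPM were transformed as log2(TPM + 1), which understates changes of low genes. Genes averaging 0.1 TPM or more were fitted with limma 3.58.1 in R 4.3.3, with trend and moderated variances, 1 mean per stage and Benjamini-Hochberg adjustment over all 16230 genes. This replaced the count test of the design because the table holds TPM. Ratios were tested by exact permutation of mice, two-sided, and correlations with 100000 resamples within stage and range. The fits were tested on simulated data. No library equalled another over all genes (0 of 171 pairs). P-values of differences set them against the spread between mice. In the main fits of stages this spread also holds the differences between the ranges of animal number. The members and the gene lists were chosen with earlier results of these data known. Genes named were the members, up to 4 genes of each list with the smallest adjusted p in a comparison, and the 3 transcripts most correlated with each member. Windows were read from RefSeq promoters on GRCm38.p6, and gene positions from GENCODE M21. Alternatives varied the pseudocount (0.5, 0.1), the filter (1 TPM, none), scaling, moderation, the mice and the groups fitted, the animal-number range and the fold condition. Those on the range comparison and the CAAAACAA search were added after the data were seen. Some genes counted in the lists are not reported by name here.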

Additional observations from a re-analysis of the deposited data

Results flagged for a closer look

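Among the 30 combinations of a member and a stage, 4 held a mouse that stood apart from its group by Dixon's criterion at the 95% level, which chance meets in about 1 of 20 groups. Socs2 in NUL was highest in NUL_226, at 77.17 TPM, against 29.25 TPM in the next mouse. Cish in ID6 was highest in ID6_216, at 21.62 TPM, against 6.57 TPM in the next mouse. Igfbp1 in NUL was highest in NUL_4, at 173.16 TPM, against 79.89 TPM in NUL_13, and both of these mice were numbered under 200. Igfals in ID6 was lowest in ID6_209, at 102.67 TPM, while the other ID6 mice lay between 123.28 and 126.74 TPM. With each of these mice left out, the gene concerned was still not called in any comparison of stages, with a lowest limma adjusted p of 0.0634 for Socs2 in ID6 against NUL.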

How the results depend on the processing

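Depth is unknown from TPM, so the precision of low values such as Cish rests on the spread between mice alone. The calls of Ghr, Stat5a and Stat5b in LAC against NUL and in ID6 against LAC kept their direction and stayed under the threshold in every alternative run except the fold condition. With a log2 fold change of at least 1 required, 0 members were called in LAC against NUL and 0 in ID6 against LAC, in place of 4 each. In ID6 against NUL, 1 member was called with the range of animal number as a covariate (Ghr), and 0 to 1 when single mice were left out (Prlr without NUL_226), in place of 0. No paired analysis was possible because the groups share no animal numbers. The remaining sign changes of stage differences concern values that were not called in either setting, and the cause was not tested. In mice of 200 and above alone the log2 fold change was 0.01932 for Prlr in LAC against NUL, 1.049 for Igfbp1 and 0.03774 for Igfbp2 in ID6 against LAC, and -0.03722 for Igfals, -0.1041 for Cish and 0.7165 for Igfbp2 in ID6 against NUL. With the range as a covariate it was 0.6804 for Igfbp1 and 0.107 for Igfbp2 in ID6 against LAC, and 0.02218 for Stat5a, 0.2499 for Igfbp1 and 0.6646 for Igfbp2 in ID6 against NUL. Leaving out single mice gave -0.7122 to 0.36 for Igfbp1 in LAC against NUL, and -0.0609 to 0.03266 for Stat5a, -0.2725 to 0.1641 for Igfbp2 and -0.1798 to 0.5482 for Cish in ID6 against NUL, as well as -0.06826 to 0.09162 for the log2 ratio of Stat5a to Stat5b in ID6 against LAC. The log2 ratio of Prlr to Ghr in ID6 against NUL was -0.02548 in mice of 200 and above, and the range difference of Prlr was -0.00151 in NUL alone. Correlations turned for Ghr and Igf1 (-0.336 under 200), Ghr and Igfals (-0.3422 with stage means only, -0.5424 under 200) and Stat5a and Stat5b (0.1052 on linear TPM, 0.1112 with stage means only, 0.1159 in mice of 200 and above).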
